A study of Mus musculus with 12 samples.

Results

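The genes described here mostly encode the transport systems of the mitochondrial inner and outer membranes. They are the Slc25a carriers, and the Timm and Tomm subunits of the protein import machinery. They were taken by name from a microarray table, as every gene whose symbol in the platform annotation begins with Slc25a, Timm or Tomm, without Slc25a11 and Slc25a20 and without probe sets that name several genes. This gave 105 of the 22626 probe sets tested, for 53 of the 12393 genes named, 31 of them carriers and 22 import genes. A probe set is a group of short probes that together read a stretch of a transcript. Where a gene had several, it was represented by the probe set with the highest mean over all arrays.

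Mitochondrial carriers are inner membrane proteins that exchange nucleotides, phosphate, organic acids, amino acids and cofactors between cytosol and matrix, and in muscle the ATP/ADP carriers hand the ATP made in the matrix to the contractile apparatus. Nearly all mitochondrial proteins are made in the cytosol and enter through the TOM complex of the outer membrane. From there, proteins with a cleavable presequence pass through the TIM23 complex, while the carriers themselves are escorted by small TIM chaperones to the TIM22 complex, so that the import genes also serve the carriers.

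RNA was taken from white gastrocnemius, the pale region of a calf muscle in which fast fibres dominate, of male C57BL/6 mice of generation F7, 14 weeks old and fasted overnight. Of the 12 arrays, 6 were from mice lacking the gamma3 subunit of the kinase AMPK, for which the labels name no tissue restriction, and 6 from wild type littermates. The gamma3 subunit is a regulatory subunit found mainly in fast muscle, and its gene, Prkag3, was not analysed here, so the genotype labels could not be checked against it. The 10 fast fibre markers looked at were all measured. All lay above the median level of the probe sets tested, with means between 12.0 and 14.3 on the log2 scale.

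Promoter windows of 300 bases, from 250 before to 50 after an annotated transcript start, were held in the RefSeq table (GRCm38.p6) for 44 of the 53 genes. They were searched on both strands for short motifs of transcription factors that are textbook regulators of nuclear genes for mitochondrial proteins or of fasting and cyclic AMP responses. The letters CCGGAAG, the core read by the Ets factor GABPA (also called NRF2), occurred in the windows of 10 of 20 import genes (50%) and of 5 of 24 carriers (20.8%), against 12.9% of all protein-coding genes in the table and 9.93% of all its genes. The import genes with a match were Timm10, Timm10b, Timm23, Timm29, Timm8a2, Timm8b, Timmdc1, Tomm22, Tomm34 and Tomm70a. The carriers were Slc25a3, Slc25a4, Slc25a17, Slc25a25 and Slc25a38.

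The windows below show the motif in capitals within otherwise lower case sequence, 5′ to 3′ on the gene's own strand, with the complement CTTCCGG where the match lies on the other strand. They were chosen after the matches were seen, as import genes with several matches, the main muscle ATP/ADP carrier, and the most variable carrier. Timm23 (chr14:32201842-32202141, minus strand) and Tomm70a (chr16:57121464-57121763, plus strand) hold 2 matches each. Tomm22 (chr15:79670618-79670917, plus strand) holds 3, of which the pair at -47 and -44 from the start overlap each other.
Timm23: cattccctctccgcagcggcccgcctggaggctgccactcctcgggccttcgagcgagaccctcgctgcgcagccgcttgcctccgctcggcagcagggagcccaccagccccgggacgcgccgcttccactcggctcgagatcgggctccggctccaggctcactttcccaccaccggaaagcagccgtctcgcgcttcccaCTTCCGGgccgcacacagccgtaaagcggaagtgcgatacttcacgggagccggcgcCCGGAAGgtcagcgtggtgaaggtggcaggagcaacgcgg
Tomm22: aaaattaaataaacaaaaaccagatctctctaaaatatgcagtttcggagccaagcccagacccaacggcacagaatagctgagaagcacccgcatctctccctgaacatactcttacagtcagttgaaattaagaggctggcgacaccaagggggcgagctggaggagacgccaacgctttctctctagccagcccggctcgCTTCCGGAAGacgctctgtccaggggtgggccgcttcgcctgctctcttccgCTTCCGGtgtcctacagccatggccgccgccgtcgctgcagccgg
Tomm70a: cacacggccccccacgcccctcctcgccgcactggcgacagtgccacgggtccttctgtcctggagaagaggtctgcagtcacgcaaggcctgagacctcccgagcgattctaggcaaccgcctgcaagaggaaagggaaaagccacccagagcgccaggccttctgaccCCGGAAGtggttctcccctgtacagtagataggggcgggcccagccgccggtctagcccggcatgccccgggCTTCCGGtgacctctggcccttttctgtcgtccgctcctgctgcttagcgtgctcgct
Slc25a4: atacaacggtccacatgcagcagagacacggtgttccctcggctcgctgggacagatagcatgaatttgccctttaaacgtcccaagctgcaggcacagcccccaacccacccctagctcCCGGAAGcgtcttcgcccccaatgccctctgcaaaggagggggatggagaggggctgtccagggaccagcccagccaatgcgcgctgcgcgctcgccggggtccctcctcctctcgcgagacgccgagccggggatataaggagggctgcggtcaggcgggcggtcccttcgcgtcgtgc
Slc25a25: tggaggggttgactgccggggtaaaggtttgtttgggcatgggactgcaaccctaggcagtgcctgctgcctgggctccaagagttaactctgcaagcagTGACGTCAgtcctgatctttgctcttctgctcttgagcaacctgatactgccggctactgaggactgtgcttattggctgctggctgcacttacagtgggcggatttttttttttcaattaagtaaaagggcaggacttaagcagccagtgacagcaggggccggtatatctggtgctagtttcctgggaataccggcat
In Slc25a4 (chr8:46211013-46211312, minus strand) the GABPA letters lie 130 bases before the start. In Slc25a25 (chr2:32424017-32424316, minus strand) the capitals mark instead TGACGTCA, the cyclic AMP response element, 150 bases before the start; its GABPA match lies in another window of the gene.

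TGACGTCA was found in 2 carriers, Slc25a25 and Slc25a36 (8.33% of 24), and in 0 of 20 import genes, against 2.54% of protein-coding genes. The NRF1 pattern, GCGCA and GCGC parted by any base, was found in Slc25a3, Timm8b and Tomm20, which is 4.17% of carriers and 10% of import genes against 7.17%. The letters TNAAGGTCA of the estrogen-related receptors were found in Timm8b alone among the members, against 1.19% of protein-coding genes. GTAAACA, read by FOXO factors, was found in 0 members, against 3.45%. Median GC content of the windows was 60% for carriers, 59.5% for import genes and 56.3% for protein-coding genes. A match says only that the letters are there.

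**Figure D1:**
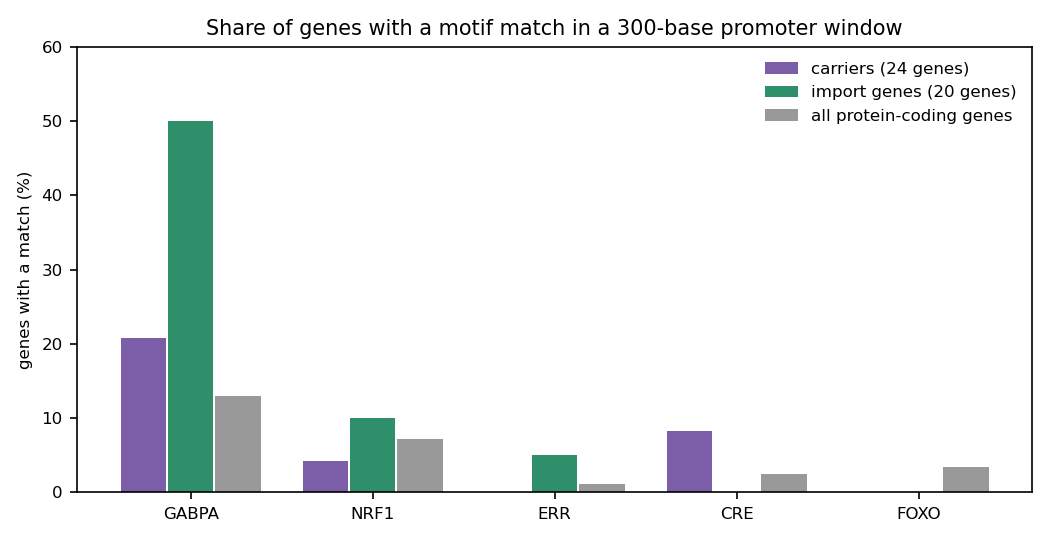
Percentage of genes with at least 1 motif match in a promoter window, for carriers (24 genes), import genes (20 genes) and all protein-coding genes of the RefSeq table, for 5 motifs on the x axis. The import genes stand at 50% for the GABPA letters, against 20.8% of carriers and 12.9% of protein-coding genes.

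Knockout was compared with wild type by limma on log2 intensities across all probe sets, with Benjamini-Hochberg adjustment. No carrier or import gene passed the test: 0 of 53 reached an adjusted p of 0.05, and 0 of 53 an unadjusted p of 0.05. The smallest adjusted p was 0.818 among carriers and 0.827 among import genes. Over the whole table few features passed, 0.0133% of probe sets and 0.0242% of genes, while 6.23% of genes reached an unadjusted p of 0.05, 2.86% as lower and 3.37% as higher in the knockout. The genotypes overlapped in all 53 members, against 0.371% of all genes in which they did not.

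For 47 of the 53 genes, 26 carriers and 21 import genes, the 95% interval of the change lay within 0.25 of 0 on the log2 scale, which is a fall of 15.9% or a rise of 18.9%. For 51 genes it lay within 0.5. The exceptions were Slc25a25 and Slc25a30, whose values spread widely between mice. These bounds hold for the deposited values, in which a change shared by most transcripts is removed and small differences of dim probe sets are pulled towards 0. In whole muscle RNA, fewer fibres of a type and less RNA per fibre cannot be told apart.

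The carriers lay slightly below 0 and the import genes slightly above it. The median change, knockout minus wild type, was -0.019 on the log2 scale for the 31 carriers and 0.0098 for the 22 import genes, a difference of -0.029. Of the carriers 20 lay lower in the knockout (64.5%) and of the import genes 8 (36.4%), against 52.6% of all genes, whose median was -0.0043. After further quantile normalization of the arrays, 54.5% of import genes lay lower, with a median of -0.0091. With each array centred on its median, 54.8% of carriers and 36.4% of import genes lay lower, against 45.4% of all genes, and the carrier median relative to that of all genes was -0.015 with and without centring.

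On the level of each list per array, the mean of its gene-centred log2 values, the genotypes overlapped throughout. The carrier level ran from -0.057 to 0.023 in the knockout (median 0.0068) and from -0.090 to 0.037 in the wild type (median 0.023). The import level ran from -0.044 to 0.051 in the knockout (median -0.0045) and from -0.042 to 0.037 in the wild type (median -0.0021). The carrier level minus the import level averaged -0.0050 ± 0.046 (SD, n = 6) in the knockout and 0.0050 ± 0.037 (SD, n = 6) in the wild type, so the difference between genotypes is smaller than the spread between mice.

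Fluidics runs, inferred from the recorded hybridization times, offered a check within batches, since each of the 3 held 2 arrays per genotype. Within runs 1, 2 and 3 the carrier level differed between genotypes by 0.0013, 0.00054 and -0.021, and the import level by -0.024, 0.042 and -0.0070. The difference carriers minus import genes was 0.026, -0.041 and -0.014, so it did not keep its sign across runs. Without Slc25a25, Slc25a30 and Slc25a33, left out after their values were seen, it was -0.0090, -0.051 and -0.030. Markers of slow and oxidative fibres varied far more. Of 12 listed, 12 were measured, and all lay above the median level of the probe sets tested. In the knockout 11 of 12 lay lower, with 0 past the threshold. Their level ran from -0.55 to 0.72 in the knockout and from -0.51 to 0.77 in the wild type. By run the slow marker level differed by -0.22, 0.32 and -0.95. With that level as a covariate, the carrier median was -0.019 and the import median 0.010.

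Among other mitochondrial genes, the 39 Nduf genes, which encode subunits and assembly factors of complex I, had a median change of -0.023 with 31 lower. The 17 Atp5 genes, subunits of ATP synthase, had -0.067 with 14 lower, and the 74 Mrpl and Mrps genes of the mitochondrial ribosome 0.0012 with 36 lower. None of these genes passed the threshold. At an unadjusted p of 0.05, 3 Nduf, 5 Atp5 and 2 Mrpl or Mrps genes were lower, against 2.86% of all genes. At the same level 1 Mrpl or Mrps gene was higher, against 3.37% of all genes. With arrays centred, 23 Nduf genes (59.0%) and 14 Atp5 genes lay lower, against 45.4% of all genes, and the Nduf median relative to all genes was -0.019 with and without centring. With further quantile normalization 35 Nduf and 17 Atp5 genes lay lower, against 52.2% of all genes. The Atp5 level by run differed by -0.083, -0.023 and -0.10, below 0 in every run, which the carriers and the import genes were not.

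**Figure D2:**
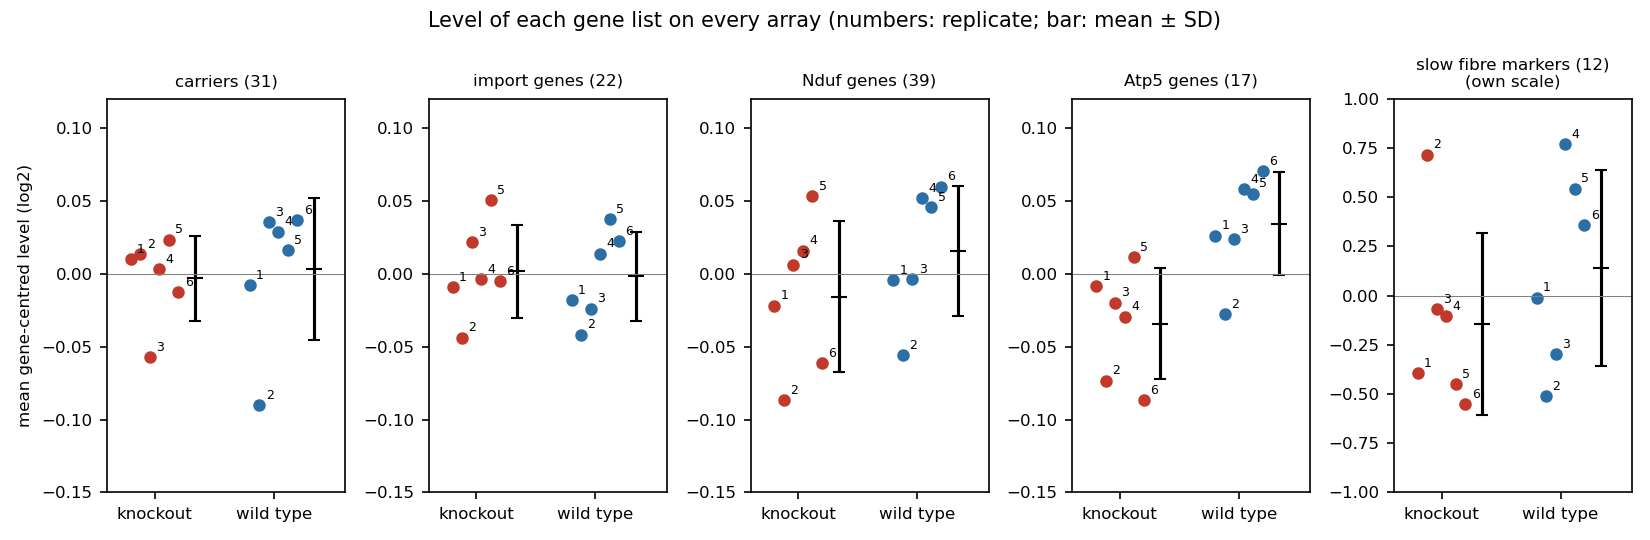
Mean gene-centred log2 level of 5 gene lists on every array (points, numbered by replicate), with mean ± SD of the 6 arrays per genotype as bars; the slow fibre panel has its own scale. The genotypes overlap in every panel, and wild type replicate 2 has the lowest carrier level, -0.090.

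The carriers of adenine nucleotides, phosphate and ATP-Mg were taken as a class by gene name, and not every member serves the matrix pool of ATP. Of 8 measured, 5 lay lower in the knockout and 0 passed. Slc25a4, the ATP/ADP carrier of heart and skeletal muscle, was among the steadiest genes on the array at its brightest probe set. Its log2 intensity there ran from 13.35 to 13.48 in the knockout (median 13.41) and from 13.37 to 13.50 in the wild type (median 13.43). Its change was -0.013 ± 0.0430 (SE, adjusted p = 0.983), and its pooled SD of 0.0449 was lower than that of all but 1.06% of genes. Slc25a3, which carries phosphate into the matrix for ATP synthesis, was steadier still, from 12.78 to 12.90 (median 12.81) against 12.81 to 12.91 (median 12.85), with a change of -0.033 ± 0.0416 (adjusted p = 0.958). At these probe sets the genotypes covered nearly the same range for both genes. Genes of every level were ranked together, and the 10 fast fibre markers, also bright, had a median pooled SD of 0.044. Whether the low spread goes with the genes or with their bright level was not tested. The dimmer Slc25a4 probe sets had an SD of 0.070, 0.12 and 0.072 in the knockout. In the wild type it was 0.046, 0.10 and 0.054, and the median pooled SD over all genes was 0.102.

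Slc25a5, the ATP/ADP carrier of most other tissues and of dividing cells, had the lowest change of all members. Its log2 intensity ran from 9.67 to 9.94 in the knockout (median 9.80) and from 9.69 to 10.48 in the wild type (median 9.93). The change was -0.20 ± 0.0998 (95% interval -0.41 to 0.015, adjusted p = 0.854). The highest wild type value, 10.48 in replicate 6, stood above all other arrays, and without it the change was -0.099. Within the 3 runs the change was 0.0074, -0.11 and -0.49, the last in the run where the slow marker level differed by -0.95, and with that level as a covariate it was -0.14. Averaged over all its probe sets, the Slc25a5 change was -0.022. The 7 other Slc25a5 probe sets gave changes from -0.073 to 0.095, 4 of them above 0. The brightest probe set of Slc25a5, like those of Slc25a29, Slc25a39, Timm10b and Tomm7, carries the array maker's mark for probes that may also read other transcripts.

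Slc25a25, an ATP-Mg/phosphate carrier regulated by calcium, had the widest spread of all members, with a pooled SD of 0.572 against a median of 0.102 over all genes and above 99.9% of them. Its knockout values were 11.18, 11.45, 10.15, 11.16, 11.02 and 11.04 in replicates 1 to 6. The wild type values were 10.70, 9.49, 11.15, 11.27, 10.99 and 11.22. One array of each genotype lay far below the rest, knockout replicate 3 and wild type replicate 2, and the other 10 lay between 10.70 and 11.45. The change was 0.20 ± 0.257 (95% interval -0.35 to 0.74, adjusted p = 0.961), and without wild type replicate 2 it was -0.069. Both low arrays were washed in run 2, in which the other arrays read 11.16 and 11.15.

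Slc25a30, a carrier related to the uncoupling proteins and known as KMCP1, and Slc25a33, a pyrimidine nucleotide carrier, were also among the most variable genes, above 99.9% and 99.5% of all genes in pooled SD. Slc25a30 ran from 8.67 to 10.19 in the knockout (median 9.48) and from 8.52 to 9.69 in the wild type (median 9.40), with a change of 0.23 ± 0.234 (adjusted p = 0.948) and 4 of its 5 probe sets above 0. Slc25a33 ran from 8.31 to 8.90 (median 8.48) and from 7.89 to 8.95 (median 8.496), with a change of 0.11 ± 0.151 (adjusted p = 0.962). In both genes the ranges of the genotypes overlapped widely. The Slc25a30 change ran from 0.072 without knockout replicate 5 to 0.38 without knockout replicate 3, and was 0.099 averaged over its probe sets. The Slc25a33 change ran from 0.012 without wild type replicate 1 to 0.22 without wild type replicate 4. With the slow marker level as a covariate the change was 0.37 for Slc25a25, 0.28 for Slc25a30 and 0.25 for Slc25a33.

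These 3 carriers were compared with each other across the 12 arrays. Slc25a25 and Slc25a33 correlated at Pearson's r = 0.734 (permutation p = 0.0087) and Spearman's rho = 0.664 (permutation p = 0.0211), and at r = 0.849 without the 2 arrays farthest from the Slc25a25 median. Slc25a25 and Slc25a30 gave r = 0.638 (permutation p = 0.0216) and rho = 0.566 (permutation p = 0.0611), and r = 0.384 without those arrays. Slc25a30 and Slc25a33 gave r = 0.658 (permutation p = 0.02) and rho = 0.573 (permutation p = 0.0561). Without the 2 arrays farthest from the Slc25a30 median this r was 0.302. Leaving out the most extreme arrays also narrows the range, so whether these relations rest on them was not settled. Adjusted over the 3 relations, the permutation p was 0.0216 for each r and 0.0611 for each rho. The genes were picked for their spread after their values were seen, a choice that the adjustment does not cover. The 4 arrays per run are too few for a value within runs.

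Within the knockout, r was 0.687 for Slc25a25 with Slc25a33 (exact permutation p = 0.0611, n = 6), 0.497 for Slc25a25 with Slc25a30 (exact permutation p = 0.392) and 0.232 for Slc25a30 with Slc25a33 (exact permutation p = 0.656). Within the wild type the same pairs gave 0.742 (exact permutation p = 0.0722, n = 6), 0.763 (exact permutation p = 0.075) and 0.973 (exact permutation p = 0.0111). All coefficients were above 0 in both genotypes, and the p-values within a genotype were not adjusted. The other carriers without these 3 had a median change of -0.028, with 20 of 28 lower.

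**Figure D3:**
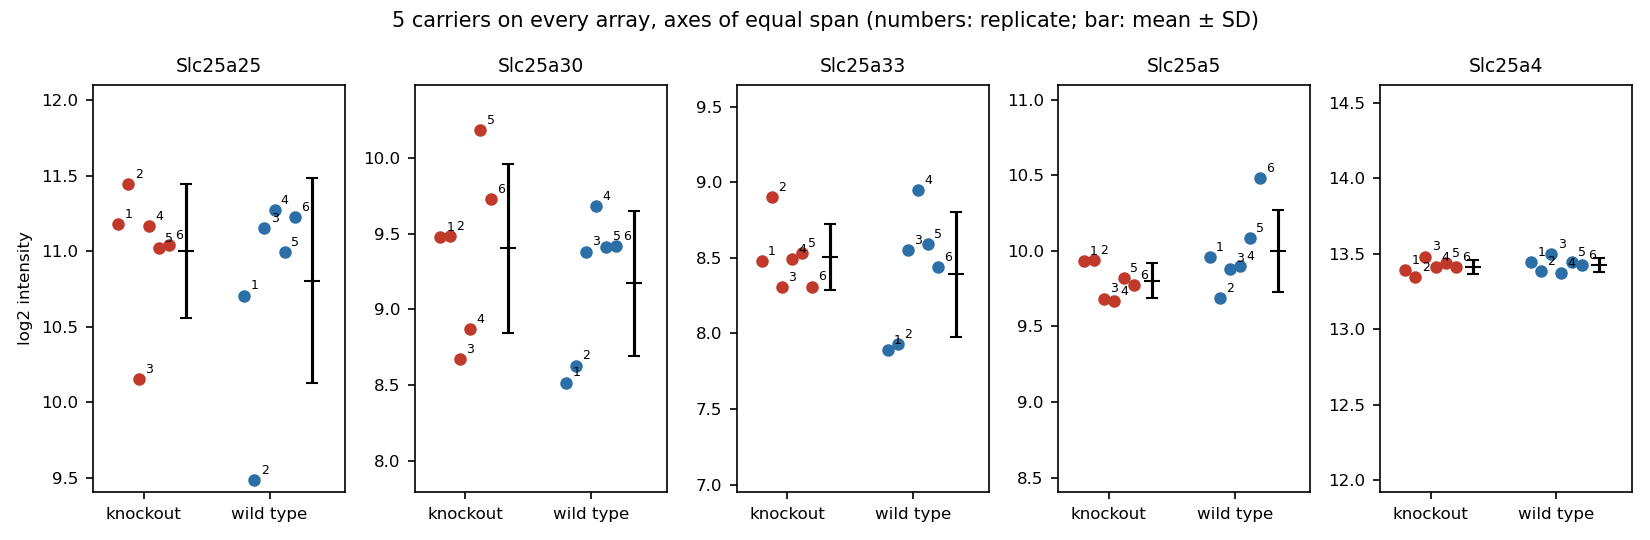
Log2 intensity of 5 carriers on every array (points, numbered by replicate), with mean ± SD of the 6 arrays per genotype, on y axes of equal span. Slc25a25, Slc25a30 and Slc25a33 spread widely within both genotypes, Slc25a5 is raised in wild type replicate 6 (10.48), and Slc25a4 stays between 13.35 and 13.50.

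Among carriers of dicarboxylates, aspartate and glutamate, 3 of 3 measured lay lower in the knockout and 0 passed, with a median change of -0.055. Slc25a22, which carries glutamate into the matrix, ran from 8.85 to 9.04 in the knockout (median 8.98) and from 9.01 to 9.13 in the wild type (median 9.07). Its change was -0.095 ± 0.0464 (95% interval -0.19 to 0.0034, unadjusted p = 0.0575, adjusted p = 0.837). The genotypes overlapped only between 9.01 and 9.04, and within runs 1 to 3 the change was -0.13, -0.050 and -0.10. Slc25a13, an aspartate/glutamate carrier of the malate-aspartate shuttle, gave -0.055, and Slc25a10, the dicarboxylate carrier, -0.019 ± 0.0488 (adjusted p = 0.98).

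Of 7 other amino acid carriers, 5 lay lower and 0 passed. The smallest p of all members belonged to one that lay higher, Slc25a15, the ornithine carrier of the urea cycle. It ran from 7.24 to 7.44 in the knockout (median 7.31) and from 7.12 to 7.29 in the wild type (median 7.22), with overlap between 7.24 and 7.29. Its change was 0.10 ± 0.0485 (unadjusted p = 0.0505, adjusted p = 0.818), and its dimmer probe set gave 0.0051. Slc25a44, the branched-chain amino acid carrier, gave -0.041 ± 0.0583 (adjusted p = 0.964), and Slc25a29, a carrier of basic amino acids, -0.011 ± 0.0507 (adjusted p = 0.99), with all 5 of its probe sets below 0. Centred on the array median, the Slc25a29 change was 0.00049.

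The carriers of cofactors, nucleotides, iron and glutathione lay higher more often than lower, with 2 of 7 lower, 0 past the threshold and a median change of 0.037. Slc25a39, the mitochondrial glutathione carrier, ran from 10.26 to 10.51 in the knockout (median 10.50) and from 10.40 to 10.62 in the wild type (median 10.55), with a change of -0.087 ± 0.0570 (adjusted p = 0.898). Its 2 dimmer probe sets gave 0.049 and -0.080. Slc25a51, the mitochondrial NAD+ carrier, ran from 9.46 to 9.65 (median 9.53) and from 9.37 to 9.60 (median 9.47), with a change of 0.050 ± 0.0502 (adjusted p = 0.947), and its 3 probe sets were all above 0, up to 0.14.

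Slc25a36, which carries pyrimidine nucleotides, was named after its values were seen, for its dimmer probe set. There the knockout ran from 5.76 to 6.16 and the wild type from 6.06 to 6.56, so the genotypes overlapped, and the change was -0.28 ± 0.0817 (unadjusted p = 0.00361, adjusted p = 0.707). The brighter probe set, which represents the gene, gave -0.15 ± 0.103 (adjusted p = 0.901), from 7.14 to 7.69 in the knockout (median 7.57) and from 7.38 to 8.01 in the wild type (median 7.61). Within runs the brighter probe set gave -0.26, -0.010 and -0.18.

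Of the 6 uncoupling-protein-like and other carriers, 5 lay lower, Slc25a30 being the exception, and 0 passed. Slc25a46, an outer membrane member of the family that acts in mitochondrial shape, gave -0.010 ± 0.0483 (adjusted p = 0.99), and its dimmer probe set 0.073. Slc25a53, of no settled substrate, gave -0.083 ± 0.0670 (adjusted p = 0.92), and its lowest value, in knockout replicate 6, was 7.96, with the next at 8.23.

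At their brightest probe sets the outer membrane translocase genes lay slightly higher in the knockout. There 0 of 6 lay lower, against 52.6% of all genes, the changes ran from 0.0054 to 0.074, and 0 passed. Counting all probe sets, 1 of 2 lay below 0 for Tomm22 (-0.030), 1 of 4 for Tomm7 (-0.0076) and 2 of 4 for Tomm70a (lowest -0.078). Tomm20, the receptor for presequences, ran from 10.16 to 10.49 in the knockout (median 10.24) and from 10.005 to 10.38 in the wild type (median 10.21). Its change was 0.074 ± 0.0764 (adjusted p = 0.95), and all 5 of its probe sets were above 0, from 0.012 to 0.12. Within the runs it was 0.022, 0.20 and 0.00036. Tomm40, the channel, ran from 8.44 to 8.69 (median 8.56) and from 8.36 to 8.63 (median 8.504), with a change of 0.060 ± 0.0569 (adjusted p = 0.942). Tomm7, a small subunit that modulates assembly of the complex, gave 0.016 ± 0.0846 (adjusted p = 0.992). The genotypes overlapped for each of these genes, and after further quantile normalization 2 of the 6 lay lower, Tomm7 among them.

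Of the 5 presequence translocase genes, 4 lay lower in the knockout, against 52.6% of all genes, and 0 passed. The changes ran from -0.053 to 0.012 with a median of -0.014, which was -0.051 after further quantile normalization, and a difference from the outer membrane genes was not tested. Timm23, the channel-forming subunit, ran from 11.81 to 12.00 in the knockout (median 11.93) and from 11.92 to 12.04 in the wild type (median 11.96), with a change of -0.053 ± 0.0460 (adjusted p = 0.928). Timm17a, its partner in the membrane, gave -0.019 ± 0.0656 (adjusted p = 0.985), and turned to 0.011 with array weights. Timm17a and the outer membrane gene Tomm40l (0.013) lie on chromosome 1, which also holds the targeted gene, and without them 27 of 51 members lay lower. Timm44, which tethers the Hsp70 motor, and Timm50, the presequence receptor of the complex, gave -0.013 and 0.012.

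Of the 9 genes of the carrier translocase and its small chaperones, 4 lay lower and 0 passed. Timm10, which forms with Timm9 the chaperone ring that escorts carriers, ran from 9.62 to 9.81 in the knockout (median 9.69) and from 9.71 to 9.95 in the wild type (median 9.80). Its change was -0.11 ± 0.0552 (unadjusted p = 0.0539, adjusted p = 0.827), and within runs 1 to 3 it was -0.19, -0.054 and -0.10. Its partner Timm9, read by dim probe sets with mean levels of 4.46 and 3.87, gave 0.029 ± 0.0625 at the brighter and -0.045 ± 0.0576 at the dimmer, so its direction was not settled. Timm13, of the other chaperone ring, ran from 9.96 to 10.28 (median 10.12) and from 9.98 to 10.09 (median 10.06), with a change of 0.083 ± 0.0551 (adjusted p = 0.898). Timm22, the channel of the carrier translocase, gave -0.049, and Timm29, a subunit of it described in human cells, 0.051 ± 0.0589 (adjusted p = 0.955).

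Timm10b gave -0.013 ± 0.0496 (adjusted p = 0.987) at the probe set that represents it, and its 3 dimmer probe sets gave 0.069, 0.00027 and 0.12, the last at unadjusted p = 0.0473 and adjusted p = 0.818. The import genes that share only the name stem lay near 0. Tomm34, a cytosolic cochaperone, gave 0.00091 ± 0.0418 (adjusted p = 0.999). Timmdc1, an assembly factor of complex I, gave 0.0081 ± 0.0602 (adjusted p = 0.994). Both stayed within the spread of the arrays, and both turned below 0 with array weights.

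**Figure D4:**
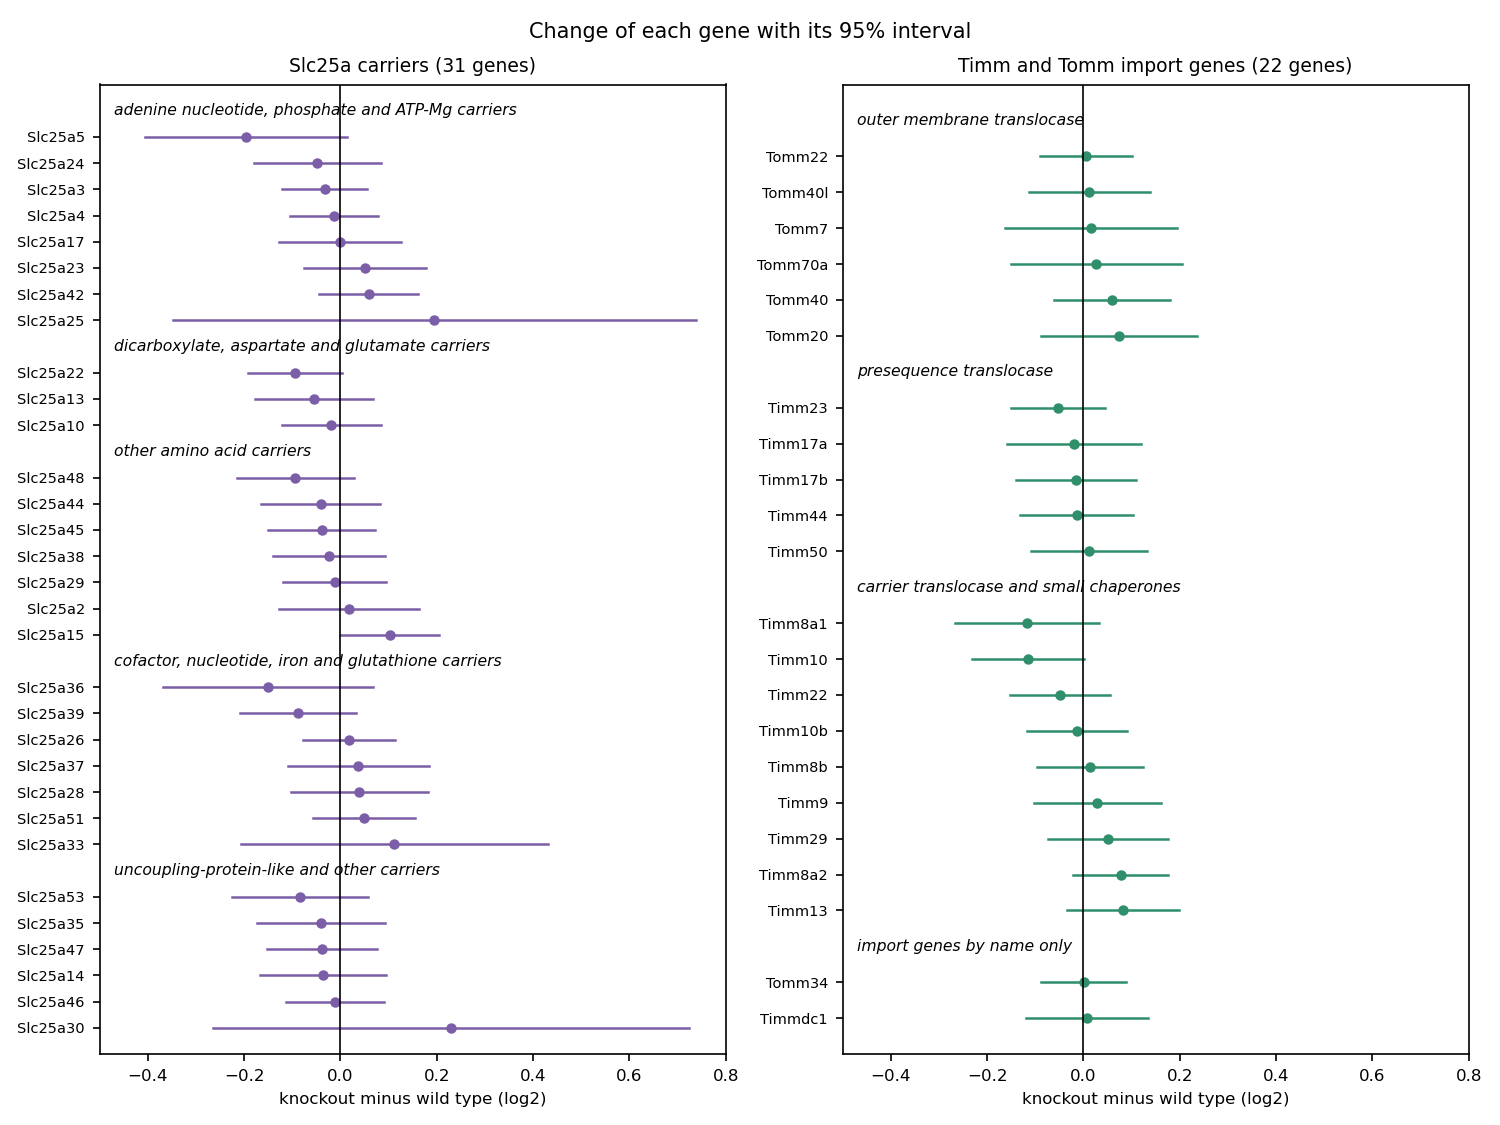
Change of each of the 53 genes, knockout minus wild type on the log2 scale (points), with its 95% interval (lines), by role class. Every interval spans 0, and those of Slc25a25 and Slc25a30 are the widest.

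Of the 53 genes, 25 had several probe sets, and in 15 of these the probe sets differed in the sign of the change. Over all 105 probe sets 0 passed the threshold and 4 reached an unadjusted p of 0.05, 2 lower and 2 higher, against 6.04% of all probe sets. The 2 lower were those of Slc25a36 given above and the dimmest of 4 for Slc25a4, which ran from 6.60 to 6.81 in the knockout and from 6.77 to 6.94 in the wild type and gave -0.14 ± 0.0475 (unadjusted p = 0.00749, adjusted p = 0.764). The other Slc25a4 probe sets gave -0.013, -0.045 and 0.030. The 2 higher were a Timm10b probe set and a dimmer probe set of Slc25a51, which gave 0.13 ± 0.0535 (unadjusted p = 0.0292, adjusted p = 0.81).

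**Figure D5:**
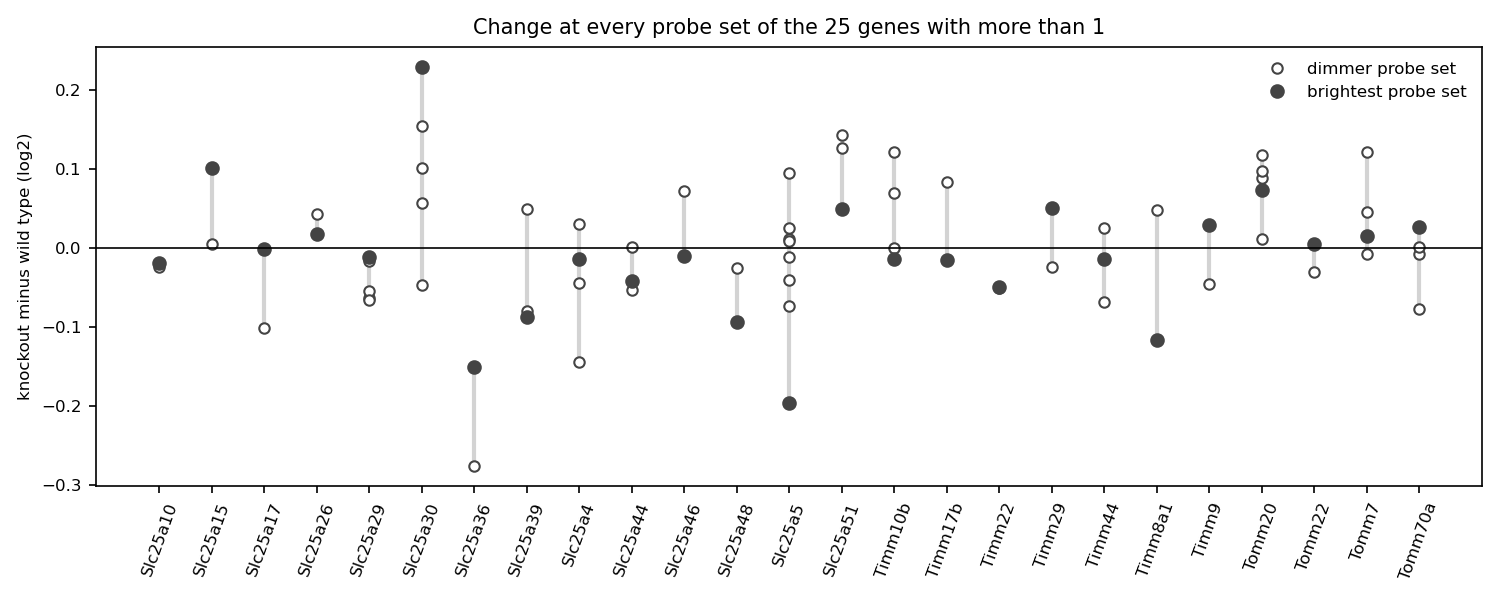
Change at every probe set of the 25 genes with more than 1, knockout minus wild type on the log2 scale; filled points are the brightest probe set of a gene and open points the dimmer ones. The 8 Slc25a5 probe sets run from -0.20 to 0.095, and all 5 of Tomm20 lie above 0.

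The changes were also listed by the GABPA letters in the promoters. The 10 import genes with a match ran from -0.11 to 0.077, with a median of 0.0067 and 3 lower, and the 10 without from -0.12 to 0.083, with a median of -0.00092 and 5 lower. The upper end among genes with a match was Timm8a2, read by a dim probe set with a mean level of 3.42, and the next was Timm29 at 0.051. The 5 carriers with a match had a median of -0.013 and the 19 without -0.038. Of the printed promoters, those of Timm23, Tomm22, Tomm70a and Slc25a4 belong to genes whose changes were -0.053, 0.0054, 0.027 and -0.013.

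Other genes of mitochondrial transport and protein sorting, which carry none of the 3 name stems, did not pass the test either. Of 48 listed, 38 were measured, 0 passed, and 3 reached an unadjusted p of 0.05, against 6.23% of all genes. Sfxn1, a mitochondrial serine transporter, gave -0.10 ± 0.0495 (adjusted p = 0.818), and Mpc1, of the pyruvate carrier, -0.047 ± 0.0540 (adjusted p = 0.955). Mtx2, of the outer membrane sorting machinery, gave -0.13 ± 0.0610 (adjusted p = 0.818), and Pam16, of the import motor, 0.12 ± 0.0569 (adjusted p = 0.818). Of the genes set aside by name, Slc25a11, the oxoglutarate carrier, gave -0.12 ± 0.0509 (adjusted p = 0.801). Slc25a20, the carnitine/acylcarnitine carrier, gave 0.090 ± 0.0777 (adjusted p = 0.926) at its brighter probe set and -0.22 ± 0.0857 (adjusted p = 0.783) at its dimmer one.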

How the data were processed

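The table deposited by the authors holds linear intensities from RMA, as the submitters' processing notes say; its version is not given in the sources used here. The method subtracts background, equalises the distributions of the arrays and summarises each probe set. After removal of 64 control probe sets from 22690, tests covered 22626. Per the platform annotation, 20380 name 1 gene, 691 several and 1555 none here. Median intensity was 132.5 to 139.8 per array, with correlations of 0.991 to 0.997 between arrays. Arrays have no read depth, so their number, 6 per genotype, limits the precision.

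After log2 transformation, genotype was fitted as the only term by limma 3.58.1 under R 4.3.3, with moderated two-sided tests, p-values adjusted by Benjamini-Hochberg over the whole table and a threshold of 0.05. The fit was tested on simulated data with known changes. Correlations used 100000 permutations. Intensities of different probe sets do not rank transcripts, so the genotypes were compared within a probe set only. Levels were set against those of other probe sets to choose and name genes, to call probe sets bright or dim and to place markers against the median. The design text calls the mice biological replicates.

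Named were, in each role class, the 2 genes with the highest mean level and the gene with the smallest p, and any gene whose probe sets differ in sign while 1 reaches an unadjusted p of 0.05, 24 genes in all. Slc25a25, Slc25a33 and Slc25a36 were added after their values were seen. Some other members, such as Slc25a13, Timm9, Timm22 and Tomm22, are given beside these outside the rule and are not among the 27 named genes. The genes, lists and motifs were chosen with earlier results of these data known. Alternatives were other scalings, a filter on dim probe sets, a trended and robust prior, array weights, blocks for replicate number, fluidics run, fluidics module and cage letter, the slow fibre level as a covariate, an average over the probe sets of each gene, and each array left out. The array records gave the batches, and their genotype note matched the label on 12 of 12 arrays. They name no fluidics run, so a run was taken as arrays whose recorded hybridization times lay close together. As a measure of RNA integrity, the mean log2 ratio between 3′ and 5′ controls for Actb and Gapdh was -0.129 ± 0.0820 (SD, n = 6) in the knockout and -0.142 ± 0.0311 (SD, n = 6) in the wild type (two-sided exact permutation p = 0.747). Promoter sequences came from RefSeq (GRCm38.p6). Protein sequences were not used here.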

Additional observations from a re-analysis of the deposited data

Results flagged for a closer look

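Of 60 groups of 6 arrays looked at, 27 named genes and 3 list levels in each genotype, 5 held an array whose gap to the next exceeded Dixon's 95% value of 0.625 of the group's range. Chance flags about 1 in 20 groups. Slc25a25 stood at 10.15 in knockout replicate 3, with the next array at 11.02, and at 9.49 in wild type replicate 2, with the next at 10.70. The carrier level was lowest, at -0.090, in the same wild type array, with the next at -0.0078. That level includes Slc25a25, so this flag is not a separate one. Without Slc25a25, Slc25a30 and Slc25a33 the carrier level of that array was -0.0072, within the wild type range of -0.013 to 0.046. Slc25a3 was highest in knockout replicate 4 at 12.90, with the next at 12.82, and Slc25a53 lowest in knockout replicate 6 at 7.96, with the next at 8.23.

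The arrays low in Slc25a25 shared a fluidics run, but not a module or a cage letter, with each other. Their 3′ to 5′ log2 ratios were -0.074 in knockout replicate 3 and -0.16 in wild type replicate 2, within the range of the other arrays, -0.22 to 0.0017. Their slow marker levels were -0.068 and -0.51. The part of these measures in the low values was not tested.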

How the results depend on the processing

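In limma, 0 members and 0 other transport or sorting genes passed the threshold under any of the 23 alternatives that refitted the test. An unadjusted p of 0.05 was reached by 0 to 5 members, 5 of them under further quantile normalization. In the main fit 6.23% of all genes and 0 members reached that level. The share of all genes under each alternative is not given here, so the counts under the alternatives cannot be set against it. The carrier median ran from -0.033 to -0.0074, the import median from -0.0091 to 0.025, the difference between them from -0.050 to -0.012, and the members lower in the knockout from 25 to 32. Without the 2 members on chromosome 1 the carrier and import medians were -0.019 and 0.0098. Without Slc25a25, Slc25a30 and Slc25a33, an alternative chosen after seeing the data, the carrier median was -0.028 and the difference -0.038. Arrays with the same replicate number shared a cage letter and a scan day across genotypes, though the labels do not call them pairs. In deviations from the genotype mean, same-numbered arrays correlated at -0.15 to 0.20, and 0 of 6 knockout arrays correlated best with their own number. Weak correlation cannot show that the mice were not paired, so this was not settled. With the replicate block, 0 members passed and 2 reached an unadjusted p of 0.05.

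Of 621 recomputed changes of the 27 named genes, 580 kept their sign and side of the threshold and 41, of 10 genes, changed sign; the smallest adjusted p was 0.631. Centring gave 0.00049 for Slc25a29 and 0.0014 for Slc25a46. Quantile normalization gave -0.020 for Tomm34 and -0.0075 for Tomm7. Array weights gave 0.011 for Timm17a, -0.023 for Timmdc1 and -0.0022 for Tomm34. The module block gave 0.013 for Slc25a46, 0.025 for Timm17a, -0.0018 for Timmdc1 and -0.0084 for Tomm34. The slow fibre covariate gave 0.0097 for Slc25a46, -0.010 for Timmdc1 and -0.00011 for Tomm34. Averaging all probe sets per gene gave 0.031 for Slc25a46 and 0.044 for Timm10b. Leaving out each array in turn, changes ran from -0.069 to 0.36 for Slc25a25, -0.045 to 0.018 for Slc25a29, -0.027 to 0.00029 for Slc25a4, -0.071 to 0.0014 for Slc25a44, -0.034 to 0.0049 for Slc25a46, -0.033 to 0.017 for Timm10b, -0.069 to 0.016 for Timm17a, -0.030 to 0.038 for Timmdc1, -0.0094 to 0.016 for Tomm34 and -0.047 to 0.064 for Tomm7. The cause of these turns was not tested.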

Other observations

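Probe sets shared with another gene were left out above. The probe set shared by Tomm5, a small TOM subunit, and Gm8069 gave -0.058 ± 0.0420 (limma, adjusted p = 0.909). Those shared by Tomm6, another small TOM subunit, and Prickle4 gave 0.066 ± 0.0489 (adjusted p = 0.909) and 0.039 ± 0.0501 (adjusted p = 0.958).

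At their brightest probe sets, pore and coupling proteins of the second list stayed near 0 in the knockout. The outer membrane channels Vdac1, Vdac2 and Vdac3 gave 0.00089, -0.0015 and -0.032, and the muscle uncoupling protein Ucp3 -0.0034. The matrix chaperones Hspa9, Hspd1 and Hspe1, which pull in and fold imported proteins, gave 0.00032, 0.066 and -0.00072. None of these 7 reached an unadjusted p of 0.05 at its brightest probe set. At their other probe sets Vdac1 gave 0.01, -0.04, -0.06 and 0.12, and Ucp3 -0.10. Hspa9 gave 0.09, -0.15 and -0.07 there, and Hspe1 0.04.

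Markers of other cell types did not pass the threshold either. Of 8 fat cell markers 6 were measured, with 4 higher in the knockout and a level from -0.034 to 0.21 in the knockout and from -0.28 to 0.10 in the wild type. Of 6 macrophage markers 4 lay higher, of 5 endothelial markers 1, and of the 3 Schwann cell markers measured 2.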
